A study of Mus musculus with 6 samples.

Results

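Adipocyte genes for lipid handling and hormones were examined in stromal cells of mouse epididymal fat, first for which of them read above background and then for differences between cells with and without signal from a Zfp423-GFP reporter. The genes were chosen by name, as 45 genes that cover hormones, lipid droplets, lipases, fatty acid uptake, synthesis and esterification, caveolae and fatty acid oxidation. Of these, 43 had a probe with their symbol on the bead array, 73 probes in all, among 19057 genes measured. No probe was matched to Cfd or Acsl1, which are not analysed here.

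The 6 arrays held RNA of 3 GFP-positive and 3 GFP-negative samples. Every sample was drawn from the stromal vascular cells of epididymal fat, without the buoyant fat cells, of males aged 5 weeks that carried the Zfp423-GFP reporter. The sort kept cells with PDGFRβ and discarded those with CD31 (endothelium) or CD45 (leukocytes), and the GFP signal then divided them. The replicates are called biological in the study's design, but whether a sample pooled animals, the kind of reporter allele and the strain background were not given in the sources used here. In such bulk samples, fewer cells that express a gene and less of its RNA per cell cannot be told apart.

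A fat cell stores triglyceride in a droplet coated with perilipins. It takes up fatty acids that lipoprotein lipase frees from circulating particles, makes others from glucose, esterifies them onto glycerol and releases them again through a chain of lipases. Its hormones, adiponectin and leptin among them, and most droplet proteins are induced late in differentiation, under the nuclear receptor PPARγ. Stromal cells that have not filled with fat can already express some of the upstream genes, Lpl being a classical early marker.

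Detection varied between roles. A gene was called detected on an array when a probe had a detection p, against the negative control beads, under 0.01. By that rule 20 of the 43 genes (46.5%) were detected on all 6 arrays, where 40.9% of all measured genes were. A further 6 were detected on some arrays and 17 (39.5%) on none, against 48.8% of all measured genes on none. Of the lipases Lpl, Pnpla2 and Mgll, the acyl-CoA ligases Acsl3 and Acsl4, the late enzymes of triglyceride synthesis and the caveolar genes Cav1 and Cavin1 were read in every sample, while leptin, resistin, the fat-cell perilipin Plin1, both CIDE droplet proteins, hormone-sensitive lipase and the insulin-regulated glucose transporter Slc2a4 were not read in any.

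Absence of signal was a weaker observation than its presence. In all 12 genes that had several probes and at least 1 detected, another probe of the same gene was detected on no array. Of the 17 genes without signal, 10 rested on a single probe and 7 on several. The positions of the probes on their transcripts were not checked. Values below are log2 normalized signals, comparable between arrays for a probe but not between genes. The lowest value of any detected probe was 6.06 to 6.35, depending on the array, and the probes detected on no array lay between 4.55 and 6.08.

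**Figure D1:**
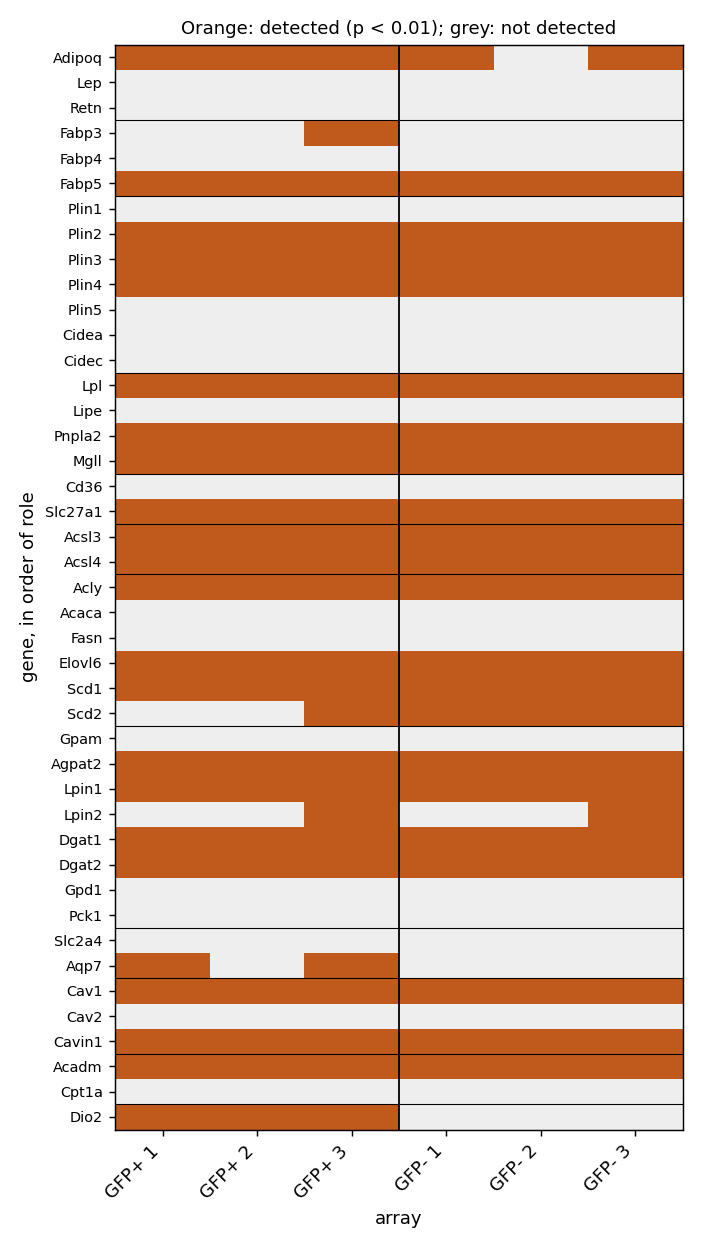
Detection of 43 adipocyte genes (rows, in order of role, lines between roles) on the 6 arrays (columns, 3 GFP-positive left and 3 GFP-negative right), taken from the probe of each gene detected on the most arrays. Of the rows, 20 are filled on all arrays and 17 on none, and Dio2 is filled on the 3 GFP-positive arrays alone.

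Between the populations, 3 of the 23 genes that could be tested were higher in GFP-positive cells and none was lower (limma, Benjamini-Hochberg adjusted p under 0.05 over all tested probes). They were Dio2, Slc27a1 and Cav1. Of all 8819 tested genes 8.65% were higher and 7.17% lower, 15.8% in either direction, so 3 of 23 (13.0%) was near the background. The groups did not overlap for 6 of the 23 (26.1%), against 36.5% of all tested genes. The median difference was 0.04 over the 23 genes and -0.02 over all tested genes, and the median size of a difference, sign aside, was 0.22 in both sets. Testing required detection on at least 3 of 6 arrays, so that Dio2, read with GFP alone, entered through that group and could pass only as higher. With detection required on all 6 arrays, 2 of 20 genes passed, Slc27a1 and Cav1, beside 16.4% of all genes.

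**Figure D2:**
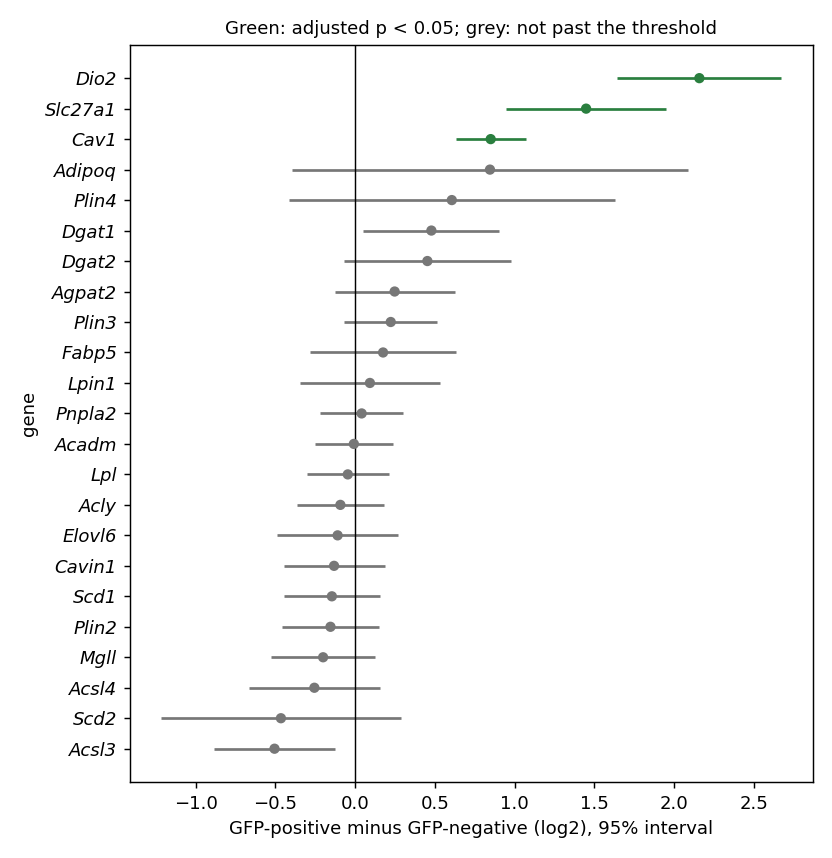
Difference between GFP-positive and GFP-negative cells (log2, horizontal) for the 23 tested adipocyte genes (vertical), with the 95% interval of the limma fit over 3 arrays per group. Dio2, Slc27a1 and Cav1 lie to the right of 0 and pass the threshold, and the intervals of 17 of the 23 genes lie within -1 and 1.

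Among the hormones, adiponectin was the sole gene with a detection p under 0.01 on any array. Adipoq read 8.50, 6.52 and 7.09 with GFP against 7.06, 5.89 and 6.63 without. The groups overlapped, 5 of the 6 arrays passed detection, and GFP-positive replicate 1 stood above all others. The difference was 0.85 ± 0.52 (SE, 95% interval -0.40 to 2.09; limma adjusted p = 0.326), and it was 0.28 without GFP-positive replicate 1 and 1.27 without GFP-positive replicate 2. The spread of Adipoq within the groups (pooled SD 0.83) exceeded that of 99.3% of all tested genes. Leptin, the satiety hormone of filled fat cells, read 5.72, 5.73 and 5.79 against 5.89, 5.87 and 5.58 (Lep, GFP-positive against GFP-negative arrays). Resistin read 4.84, 5.14 and 4.70 against 4.63, 4.75 and 4.86 (Retn). Neither hormone passed detection on any array, and their groups overlapped. For leptin this rested on the threshold, since its detection p was 0.0214 to 0.0630 and lay under 0.05 on 4 of the 6 arrays.

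The level of Adipoq was set beside markers of fat cells and of mesothelium, the sheet that covers this fat pad. Of 17 fat-cell markers with a probe, Adipoq, Plin1, Cidec and Lep included, 2 were detected on all 6 arrays and 10 on none, among them Plin1, Cidec, Lep, Lgals12, Hcar1 and Trarg1. The summed linear signal of the 13 markers other than those 4 was 2286 to 3078 in GFP-positive and 3594 to 4957 in GFP-negative cells, mostly from Ces1d. Of 8 mesothelial markers 3 were detected on all arrays and 3, Krt18, Krt19 and Lrrn4, on none. None of the 3 tested passed the threshold, and the summed signal was 2571, 1367 and 572 on the GFP-positive and 932, 852 and 716 on the GFP-negative arrays. GFP-positive replicate 1, the array highest for Adipoq, was also the highest for mesothelial markers and for the summed red cell markers (913). Its sum of fat-cell markers, 3078, was above those of GFP-positive replicates 2 and 3 (2478 and 2286) and below that of every GFP-negative array. GFP-positive replicate 2, next for mesothelial markers, read lower for Adipoq than GFP-negative replicates 1 and 3. The part of either cell type in the Adipoq values was not tested.

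The Adipoq promoter is shown because it governs the most variable of these genes. It is given from 250 bases before the RefSeq transcription start to the last base before it (GRCm38.p6, chr16:23146286-23146535, plus strand), in lower case with matches to CCAAT, or its reverse complement, in capitals.
Adipoq: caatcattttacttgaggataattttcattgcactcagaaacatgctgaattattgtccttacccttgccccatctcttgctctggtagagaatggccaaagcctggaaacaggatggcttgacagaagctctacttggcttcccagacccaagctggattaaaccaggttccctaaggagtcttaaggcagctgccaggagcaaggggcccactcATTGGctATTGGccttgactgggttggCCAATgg
The letters CCAAT or their complement occur 3 times here. They are found in 37.4% of 32851 promoter windows of 300 bases (250 before to 50 after a start), so their presence is common.

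The fatty acid-binding proteins carry fatty acids through the cytoplasm. Fabp5 was detected on all 6 arrays and read 7.05, 7.56 and 7.21 with GFP against 6.94, 6.92 and 7.44 without. Its groups overlapped, with a difference of 0.17 ± 0.19 (95% interval -0.28 to 0.63; limma adjusted p = 0.589). Fabp4, the abundant member of mature fat cells, read 5.22, 4.95 and 4.72 against 4.81, 4.63 and 4.74 and was detected on no array. Fabp3, the heart and muscle member, was detected on GFP-positive replicate 3 alone and was not tested.

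Of 7 droplet coat genes, 3 were detected on all arrays and 4 on none. Plin2 and Plin3, which coat droplets in many cell types, and Plin4 were the 3 with signal, whereas Plin1 and Plin5, known from fat cells and from oxidative tissue, and the CIDE proteins Cidea and Cidec, which drive droplet growth, had none. Plin2 read 8.72, 8.69 and 9.01 with GFP against 9.04, 9.01 and 8.85 without, overlapping, with a difference of -0.16 ± 0.13 (limma adjusted p = 0.459). Plin3 differed by 0.22 ± 0.12 (limma adjusted p = 0.272). Plin4, a coat protein of small nascent droplets, read 7.70, 8.92 and 9.49 with GFP against 8.10, 7.82 and 8.39 without. GFP-positive replicate 1 was the lowest of all 6 and the other GFP-positive arrays were the highest. The difference was 0.61 ± 0.43 (95% interval -0.42 to 1.63; limma adjusted p = 0.392), and it rose to 1.11 (limma adjusted p = 0.0381) without that array and fell to 0.21 without GFP-positive replicate 3. Plin4 and Adipoq were the 2 tested genes of the set with the widest spread within groups, and GFP-positive replicate 1 was highest for Adipoq and lowest for Plin4. At background, Plin1 read 5.13, 4.94 and 4.81 against 5.27, 4.98 and 4.78. Cidec read 5.22, 4.89 and 4.76 against 4.71, 4.94 and 4.84.

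**Figure D3:**
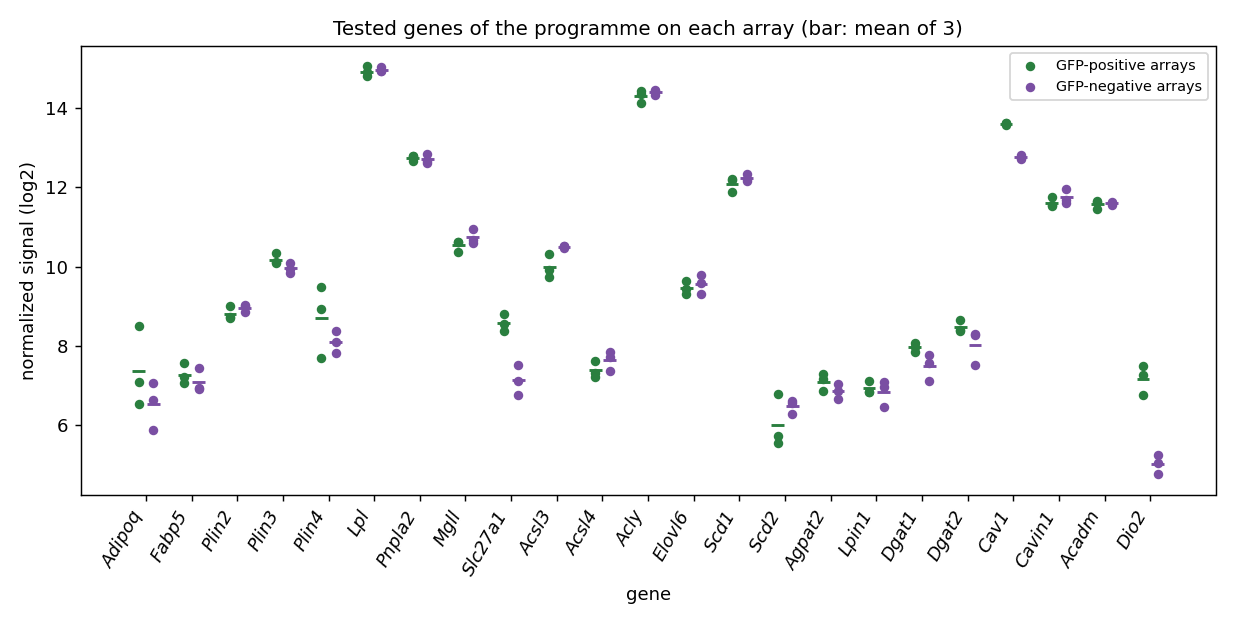
Normalized signal (log2, vertical) of the 23 tested adipocyte genes (horizontal) on each of the 3 GFP-positive and 3 GFP-negative arrays, with a bar at each group's mean. The points of Cav1, Slc27a1 and Dio2 separate by group, those of Adipoq and Plin4 spread widely within the GFP-positive arrays, and heights are not comparable between genes.

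Of the lipases, 3 of 4 were read on every array and none differed past the threshold. Lpl encodes lipoprotein lipase, which frees fatty acids from lipoproteins outside the cell. It read 15.05, 14.90 and 14.80 with GFP against 15.03, 14.92 and 14.94 without. The groups overlapped, and the difference was -0.05 ± 0.11 (95% interval -0.30 to 0.21; limma adjusted p = 0.815). Its raw signal stood at 78.5% to 93.1% of the brightest probe on its array. Whether signals of that height were saturated was not tested. Inside the cell, triglyceride is cleaved in turn by the products of Pnpla2, Lipe and Mgll. Pnpla2, which encodes the enzyme of the first cut, read 12.67, 12.78 and 12.78 against 12.85, 12.66 and 12.60, a difference of 0.04 ± 0.11 (95% interval -0.22 to 0.30; limma adjusted p = 0.844). Mgll, for the last cut, differed by -0.20 ± 0.14 (limma adjusted p = 0.370). Lipe, for the hormone-sensitive lipase between them, had no signal on any of its 3 probes, and the brightest read 4.82, 5.94 and 5.12 against 4.86, 5.29 and 5.17. Among 6 tested partners of lipolysis none passed the threshold, the inhibitor of the first lipase, G0s2, coming nearest (0.69 ± 0.19, limma adjusted p = 0.0542).

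Fatty acid uptake held a clear difference. Slc27a1 encodes FATP1, a transport protein with acyl-CoA synthetase activity that takes up long-chain fatty acids in fat and muscle. It read 8.37, 8.56 and 8.79 with GFP against 6.75, 7.51 and 7.12 without. All GFP-positive arrays lay above all GFP-negative ones. Slc27a1 was 2.73-fold higher in GFP-positive cells (log2 1.45 ± 0.21 SE, 95% interval 0.95 to 1.95; limma adjusted p = 0.00549). The difference was 1.71 within the arrays whose titles open with RG and 1.48 within those that open with KM. The labels do not say what these letters mean. RG holds GFP-positive replicates 1 and 2 with GFP-negative replicate 1, and KM the others, so each such difference has a single array on a side. The Slc27a1 difference was 0.92 if background was left uncorrected. Its relative Slc27a3, from the list of other uptake and activation genes, also rose (1.73-fold, log2 0.79 ± 0.13; limma adjusted p = 0.00927), alone among 9 tested genes of that list. Cd36, the fatty acid receptor of mature fat cells and capillaries, had no signal on its single probe, which read 4.78, 4.87 and 5.19 against 4.83, 4.99 and 5.06.

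Acyl-CoA synthetases activate fatty acids for all later steps. Acsl3, which sits on forming droplets, read 9.73, 9.92 and 10.32 with GFP against 10.51, 10.51 and 10.47 without. The groups did not overlap, and the difference of -0.51 ± 0.16 (95% interval -0.89 to -0.12) missed the threshold (limma adjusted p = 0.0806). It passed under 4 of 17 alternatives, with adjusted p from 0.0211 to 0.203 over them, and came to -0.68 among the RG arrays and -0.17 among the KM arrays. Acsl4, which prefers arachidonic acid, differed by -0.26 ± 0.17 (limma adjusted p = 0.369).

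In fatty acid synthesis the first and the last steps were read, and the central ones were not. Acly, which makes cytosolic acetyl-CoA, the elongase Elovl6 and the desaturase Scd1 were detected on all arrays, while Acaca and Fasn, for acetyl-CoA carboxylase and fatty acid synthase, were detected on none, each with 1 probe. Scd1 read 12.18, 11.87 and 12.20 with GFP against 12.15, 12.32 and 12.21 without, overlapping, with a difference of -0.15 ± 0.13 (95% interval -0.45 to 0.15; limma adjusted p = 0.485). Fasn read 4.88, 5.67 and 5.14 against 4.97, 5.57 and 5.41. Acly and Elovl6 differed by -0.09 ± 0.12 and -0.11 ± 0.16. A second desaturase gene, Scd2, was detected on 4 arrays, every GFP-negative one and GFP-positive replicate 3. It differed by -0.47 ± 0.32 (limma adjusted p = 0.373), or by -0.85 (limma adjusted p = 0.0203) without GFP-positive replicate 3. Leaving that array out left no GFP-positive array with signal, so Scd2 could then pass only as lower.

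The other genes of this process gave 2 rises and no falls among 12 tested. Acacb encodes the second acetyl-CoA carboxylase, whose product malonyl-CoA restrains fatty acid oxidation. It read 9.41, 9.29 and 9.42 with GFP against 8.19, 7.56 and 7.63 without, without overlap, and was 2.99-fold higher (log2 1.58 ± 0.18 SE; limma adjusted p = 0.00199). Mlxipl, for the glucose-sensing transcription factor ChREBP, read 7.76, 8.53 and 8.13 against 6.91, 7.24 and 6.45, and was 2.42-fold higher (log2 1.28 ± 0.26; limma adjusted p = 0.0195).

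Triglyceride synthesis adds fatty acids to glycerol-3-phosphate. Its later enzymes, Agpat2, the phosphatase Lpin1 and the acyltransferases Dgat1 and Dgat2, were read on every array. Gpam, for a mitochondrial enzyme of the entry step, and the glycerol-phosphate suppliers Gpd1 and Pck1 were read on none, and the brighter Pck1 probe gave 5.35, 5.18 and 5.33 against 5.00, 5.70 and 5.28. From the list of other glycerolipid genes, Gpat4, for an entry enzyme of the endoplasmic reticulum, was detected on all arrays at 13.99 to 14.13, with a difference of 0.04 ± 0.10 (limma adjusted p = 0.828), and Gpd2 was detected on all arrays too. Lpin2 was detected on 2 arrays and was not tested. Dgat1, for the enzyme of the last step, read 7.98, 8.08 and 7.84 with GFP against 7.77, 7.12 and 7.58 without. The groups did not overlap, and the difference of 0.48 ± 0.18 (95% interval 0.05 to 0.90) missed the threshold (limma adjusted p = 0.125). Dgat2 (0.45 ± 0.22) and Agpat2 (0.25 ± 0.16) also had positive differences that missed it. Of 9 other glycerolipid genes, Fitm2, whose product buds droplets from the endoplasmic reticulum, rose 1.37-fold (limma adjusted p = 0.0313) and the acyltransferase gene Agpat4 was 2.05-fold lower (log2 -1.04 ± 0.11; limma adjusted p = 0.00126).

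Glucose and glycerol passage gave no tested gene. The glucose transporter gene Slc2a4 read 4.99, 5.28 and 4.92 against 5.05, 5.03 and 5.01, at background throughout. Aqp7, the glycerol channel of fat cells, was detected on GFP-positive replicates 1 and 3 and on no GFP-negative array. Its brightest probe read 6.53, 6.22 and 6.56 against 4.79, 5.41 and 5.44, without overlap, and was at least 1.19-fold higher. A further probe, detected on the same arrays, read 6.26, 5.63 and 6.55 against 4.73, 5.59 and 4.83. Its groups did not overlap, but its bound was -0.03 (log2), so it set no minimum rise. The remaining probes of Aqp7 were detected on no array and differed by -0.15 and 0.29. Aqp7 failed the filter on dim probes, and under looser filters the fitted difference of 1.22 passed. The limma adjusted p was 0.0115 with detection p under 0.05 on at least 3 arrays, and 0.0303 with no filter. With the former, the brightest probe entered through the GFP-positive arrays alone, so it could pass only as higher. A bound marked "at least" sets the group with signal against the lowest detected value of each array where a probe lay below it. Such a bound compares group means of background-corrected values and makes no allowance for sampling error.

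Caveolae, the membrane pits that cover the fat-cell surface, held the difference with the smallest standard error of the 23 genes. Cav1 encodes caveolin-1, their principal coat protein. It read 13.61, 13.58 and 13.62 with GFP against 12.80, 12.75 and 12.72 without. The groups were far apart relative to their spread (SD 0.023 and 0.042, n = 3 each). Cav1 was 1.80-fold higher in GFP-positive cells (log2 0.85 ± 0.09 SE, 95% interval 0.63 to 1.07; limma adjusted p = 0.00175), by 0.79 among the RG arrays and 0.89 among the KM arrays. Cavin1, the coat's adaptor, did not follow. It read 11.74, 11.56 and 11.53 against 11.67, 11.96 and 11.60, with a difference of -0.13 ± 0.13 (95% interval -0.45 to 0.18; limma adjusted p = 0.552). Cav2 had no signal on either of its probes. Of 5 other caveolar genes tested, Cavin2 differed by 0.40 ± 0.11 (limma adjusted p = 0.0575), and Pacsin2, for a membrane-bending protein, was 1.51-fold lower (limma adjusted p = 0.0254).

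Cav1 is also abundant in endothelial and mural cells, so their markers are given beside it. Of 12 endothelial markers with a probe, 8 were detected on all arrays and Tie1 on none. None of the 10 tested rose and Tek fell, with a median difference of -0.01 over the 10. The summed signal was 9593 to 10560 in GFP-positive and 17055 to 18234 in GFP-negative cells. Without Tek it was 6911 to 7170 against 7603 to 8324, mostly from Ramp2 (-0.25 ± 0.11, limma adjusted p = 0.166). Emcn (0.74 ± 0.22) and Cdh5 (0.61 ± 0.31) had positive differences that missed the threshold. Of 9 mural markers 5 were detected on all arrays, 6 of the 7 tested passed as higher (8.65% of all genes did), and the summed signal was 8337 to 12716 against 4541 to 6117. Of those 6, Abcc9 and Kcnj8 were detected on GFP-positive arrays alone and could pass in that direction only. The part of mural cells in the Cav1 and Dio2 differences was not tested.

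Fatty acid oxidation was represented by Acadm, a mitochondrial acyl-CoA dehydrogenase, which differed by -0.01 ± 0.10 (95% interval -0.25 to 0.23; limma adjusted p = 0.967). Cpt1a, for the gatekeeper of mitochondrial entry, had no signal on either probe. Of the other genes of the pathway, 13 of 15 were detected on all arrays, and 1 of 13 tested passed, Cpt1b, at 1.69-fold lower in GFP-positive cells (limma adjusted p = 0.0429).

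Dio2 encodes the type 2 deiodinase, which converts thyroxine to the active hormone inside the cell and is known from brown fat, where cyclic AMP induces it. Its brighter probe read 6.76, 7.26 and 7.50 with GFP against 5.05, 5.24 and 4.76 without. All GFP-positive arrays passed detection and no GFP-negative array did. On group means of the background-corrected values, the level with GFP was at least 1.98-fold higher, without allowance for sampling error. The fitted difference, set against background, was 2.16 (limma adjusted p = 0.00119), or 1.97 among the RG arrays and 2.50 among the KM arrays. It shrank to 0.86 if background was left uncorrected. The other Dio2 probe was detected on no array. Exact permutation tests of the 3 genes that passed gave p = 0.1 each, 2-sided, the smallest value that 3 against 3 arrays allow. Of 8 thermogenic genes with a probe, 6 were detected on no array, Ucp1, Ppargc1a and Cox8b among them, beside 48.8% of all genes. The other two were Prdm16, a regulator of brown fat identity, which differed by 0.58 ± 0.35 (limma adjusted p = 0.306), and Ebf2, a regulator of brown preadipocytes, which was 1.92-fold lower in GFP-positive cells (limma adjusted p = 0.0403).

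The Dio2 promoter is shown because, among the genes with a matched promoter, it alone held the exact letters TGACGTCA of a cyclic AMP response element. Variant forms of the element were not searched, and genes without a matched promoter were not examined. It is given from 250 bases before the RefSeq start (GRCm38.p6, chr12:90739039-90739288, minus strand), with the element TGACGTCA and the TATA box TATAAA in capitals.
Dio2: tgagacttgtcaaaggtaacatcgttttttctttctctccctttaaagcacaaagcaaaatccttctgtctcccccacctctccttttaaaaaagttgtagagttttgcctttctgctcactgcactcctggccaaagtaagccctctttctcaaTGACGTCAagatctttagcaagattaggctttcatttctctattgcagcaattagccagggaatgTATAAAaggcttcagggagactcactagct
The element begins at position -95 and the TATA box at position -30, counted from the start. Searched on both strands, TGACGTCA occurred in 1.79% of all 32851 promoter windows and in 1 of the 48 windows that matched 35 of the 45 genes. TATAAA occurred in 13.6% of all windows, and in those of Dio2 and Cav1 among these genes. CACGTG, an E-box, occurred in 7.15% of all windows and in those of Lipe, Lpin2, Mgll, Plin2 and Slc27a1. These matches describe letters and not bound sites.

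Promoter composition was compared between the detected and undetected genes as a description. The ratio of observed to expected CpG had a median of 0.54 over the 15 genes detected on all arrays with a matched promoter (0.092 to 0.97) and 0.38 over the 13 detected on none (0.085 to 1.09), with wide overlap, beside 0.39 over all genes with a window. It was under 0.2 for Plin1, Retn and Acaca among the genes not detected and for Lpin1 alone among those always detected. Of the 5 genes detected on some arrays, Adipoq (0) and Aqp7 (0.066) were under 0.2.

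In the remaining pathway lists, which were written with earlier results of these data known, a few genes moved. Over all 10 lists, 62 of the 110 genes with a probe (56.4%) were detected on all arrays, beside 40.9% of all genes. Of 69 tested, 7 passed as higher and 5 as lower (17.4%), near the 15.8% of all genes. The strongest was Rbp4, for the retinol carrier that fat secretes, which read 10.37, 9.99 and 10.34 with GFP against 7.25, 7.63 and 7.51 without. It was 6.83-fold higher (log2 2.77 ± 0.16 SE; limma adjusted p = 0.000133) and the single call among 5 tested secreted factors. Among fat-cell markers, Mrap, the accessory protein of the corticotropin receptor, rose 2.29-fold (limma adjusted p = 0.00685). Ces1d, a lipid-droplet carboxylesterase in the same list, fell 2.08-fold (limma adjusted p = 0.0286). Cyp2e1, also of that list and among the 7 counted as higher, rose at least 3.31-fold by the bound on group means. It was detected on GFP-positive arrays alone, so it entered the test through them and could pass only as higher (limma adjusted p = 0.00785). None of the 3 tested genes of insulin action and glucose uptake passed.

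Markers of the gate were mixed. All 7 stromal markers with a probe were detected on all arrays, with Pdgfrb 1.49-fold higher in GFP-positive cells (limma adjusted p = 0.0172) and Col1a2 also higher. Zfp423 (0.12 ± 0.17) and Pparg (0.22 ± 0.17) showed no difference past the threshold. Pecam1, which encodes the CD31 that the gate removed, was detected on all 6 arrays (7.44 to 8.50), and Ptprc, for CD45, on none. Of 11 leukocyte markers 6, Ptprc included, were detected on no array. Csf1r and Lyz2 of the 5 tested passed as higher, both detected on GFP-positive arrays alone and so able to pass in that direction only, while Fcer1g differed by -1.12 ± 0.47 (limma adjusted p = 0.161). The list had a summed signal of 927 to 1216 in GFP-positive and 443 to 679 in GFP-negative cells. Schwann cell markers (2 with a probe) were not detected, and 2 of 3 red cell markers were tested without a call. Median raw signals per array were 145.8 to 162.0, with 13068 to 14026 probes detected, and no array stood apart.

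**Figure D4:**
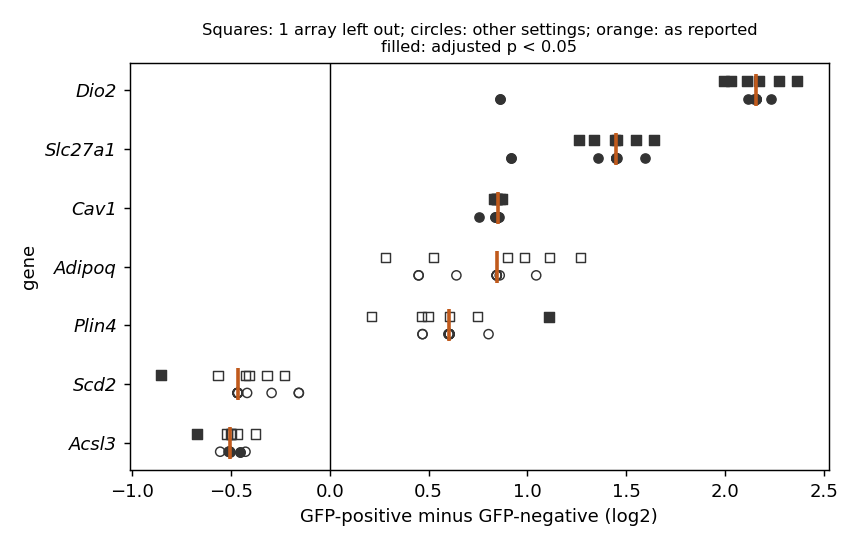
Difference between GFP-positive and GFP-negative cells (log2, horizontal) for 7 adipocyte genes (vertical) under each alternative, with squares for 1 array left out, circles for other settings, filled marks past the threshold and an orange bar for the value as reported. Dio2, Slc27a1 and Cav1 are filled throughout, and Adipoq, which ran from 0.28 to 1.27, is never filled.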

How the data were processed

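Probe signals were deposited as non-normalized intensity values on a linear scale, per the file headers, and a detection p-value stands beside every signal as deposited. GenomeStudio is named in the submitters' processing notes, with settings not given in the sources used here. Per the labels' protocols, 2 rounds of amplification preceded labelling. The authors' second table holds intensity values with 1 distribution on all arrays, read as quantile-normalized.

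Of 45281 probes, the platform annotation gave 34885 a single symbol, 18 several and 10378 none. Signals were processed with neqc in limma 3.58.1 (R 4.3.3): normexp background correction (offset 16, negative controls reconstructed from detection p-values), then quantile normalization on the log2 scale. The 13727 probes (8819 genes) that passed a detection p of 0.01 on 3 or more arrays were tested with limma's moderated model, 2-sided, adjusted over all tested probes with a threshold of 0.05. The tested probe of highest mean stands for a gene, or the brightest probe where none was tested. Summed marker signals are linear, over 1 probe per gene, with the offset subtracted. The script was tested on simulated data.

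The members and lists were chosen with earlier results of these data known. Values on every array were given for members past the threshold, with a difference of at least 0.75, or fixed by name, and other pathway genes were named if past the threshold. Some further members, among them Plin4, Acsl3, Dgat1 and Aqp7, were singled out after their values were seen. So were list genes that missed the threshold (G0s2, Cavin2, Gpat4, Gpd2, Prdm16, Fcer1g, Emcn, Cdh5 and Ramp2). Nothing says how the replicates were obtained beyond their being biological, so p-values measure the spread between these samples, and 3 arrays per group limit the precision.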

Additional observations from a re-analysis of the deposited data

How the results depend on the processing

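The 3 rises held under each alternative in which the gene was tested (Dio2 was not tested where detection on all 6 arrays was required). The number of these genes lower in GFP-positive cells, 0 as reported, was 1 (Acsl3) with the authors' normalized values, without background correction, with an intensity trend and robust prior, or at an adjusted p under 0.1, and 0 to 2 with single arrays left out (Acsl3 and Scd2 without GFP-positive replicate 3). The number higher was 3 to 4 with single arrays left out (adding Plin4 without GFP-positive replicate 1), and the median difference ran from -0.00083 to 0.033. With median scaling the median was -0.05, beside -0.07 over all tested genes. At a detection p under 0.05, 22 genes in place of 20 were detected on all arrays, adding Adipoq and Lpin2. Of all genes, 461 to 682 were higher and 258 to 533 lower with single arrays left out (omitting GFP-negative replicate 2 left 461 and 258, omitting replicate 3 of that group left 481 and 275, and omitting GFP-positive replicate 2 left 395 lower), against 763 and 632 as reported, and 381 and 208 at an adjusted p under 0.01. The number lower was 1006 at an adjusted p under 0.1 and 409 without a detection filter. With the replicate number as a block it was 383, and the calls among the adipocyte genes were the same 3. The deviations of same-numbered samples from their group means correlated at -0.07, -0.20 and 0.07. They showed no pairing by number, though 3 arrays per group cannot exclude one. Of 388 single-gene values under alternatives, 382 kept their side of the threshold, and Lpin1, 0.09 as reported, was -0.09 without GFP-negative replicate 1. Without GFP-positive replicate 3, Scd2 had signal on GFP-negative arrays alone and could pass only as lower. The causes of these changes were not tested.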
